A study of Mus musculus with 47 samples.

Results

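Wnt signalling in the sorted mammary epithelium was followed through 10 genes: the ligands WNT4, WNT5A, WNT5B and WNT7B, the secreted amplifier RSPO1, the R-spondin receptors LGR4, LGR5 and LGR6, the feedback target AXIN2 and the cell surface receptor PROCR. They were chosen by name, and each matched a row among the 21980 gene symbols of the deposited expression table. The table holds 47 RNA libraries from 20 ovariectomized FVB mice, so every group, sham included, lacked ovaries. Mice received estradiol plus progesterone (E2+Progesterone, EP), EP with TPA (EP+TPA), EP with RU486 (EP+RU486), or a sham treatment whose content the labels do not give, each for 14 days. TPA is read here as telapristone acetate, which the series title names, and RU486 is mifepristone; both are steroidal antagonists of the progesterone receptor. Each mouse's mammary cells were sorted into luminal mature (LM), luminal progenitor (LP) and mammary stem cell (MSC) fractions, with 15, 16 and 16 libraries. Every fraction had 4 mice per treatment, apart from 3 mice in the LM EP group. Doses, ages and sorting gates are not given in the sources used here, and no group received estradiol alone or an antagonist without hormones. Many mice gave more than 1 fraction, so the fractions are not independent series of animals.

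Wnt ligands are lipid-modified secreted proteins that bind Frizzled receptors and their coreceptors. In the canonical branch this stabilises beta-catenin, which activates TCF/LEF target genes such as AXIN2. R-spondins raise the response by binding LGR4, LGR5 or LGR6 and removing the ligases ZNRF3 and RNF43, which otherwise clear Frizzled from the cell surface. In the mammary gland, WNT4 and RSPO1 are known as progesterone-responsive paracrine signals made by hormone-sensing luminal cells, and PROCR and LGR5 have been used as markers of basal stem or progenitor cells.

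Values are on the FPKM scale (fragments scaled to transcript length and library total), rescaled here so that libraries adjusted together have the same median ratio. The summed deposited value of a library ran from 217977 to 358375, and read depth is unknown. Identical positive values shared between libraries divided the table into 3 sets, within which it is taken to have been adjusted: all 15 LM libraries, the 16 LP libraries with 6 MSC libraries, and the other 10 MSC libraries. Levels are therefore compared within a set only, a listed 0 is not taken as absence, and low values can carry an offset that shrinks fold differences. Treatments were compared with limma on log2(value + 1) across all genes passing a filter on low values, and a gene was called at a Benjamini-Hochberg adjusted p under 0.05. WNT5A, WNT7B and AXIN2 have exons that overlap a gene on the other strand, and the library kit does not mark strand, so reads of these overlapping pairs cannot be told apart.

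Some libraries stood apart. Summed over 11 luminal mature markers, the LM libraries read 791 to 2097 in sham, 730 to 2662 in EP, 123 to 333 in EP+TPA and 100 to 143 in EP+RU486. The defining markers FOXA1 and PRLR were listed at 0 in every antagonist-treated LM library except mouse 332 of the EP+TPA group, so in the other 7 these markers went against the label. The 10 luminal progenitor markers of those 7 libraries summed to between 6767 and 9673, against 283 in mouse 332, 238 to 542 in EP and 2817 to 8647 in sham. Mouse 311 of the EP group had the highest luminal mature sum of the LM libraries, 2662, and in LP the lowest of the 4 EP mice, 343.5 against 1337 to 2224. In MSC, KRT14, a basal keratin, was listed at 0 in mice 313, 328 and 329. The 10 endothelial markers summed to 25.4 in mouse 326 and were listed at 0 in mouse 327, against 181 to 1522 in the other 14 MSC libraries. Some results are also given without mice 311 and 332 in LM, mouse 311 in LP and mice 326 and 327 in MSC. The other 7 antagonist-treated LM libraries and MSC mice 312, 313, 328 and 329 were left out singly and never together. In bulk RNA, fewer cells of a type and less RNA per cell cannot be told apart.

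WNT4, the ligand required for side branching of the gland, was lower with either antagonist in both luminal fractions. In LM, the sham libraries read 21.2, 7.48, 12.1 and 16.4 and the EP libraries 16.3, 24.9 and 10.1. The EP+TPA libraries were listed at 0 in 3 mice and read 6.17 in mouse 332, and all 4 EP+RU486 libraries were listed at 0. Sham and EP overlapped, with a log2 difference of 0.25 (SE 0.58, limma adjusted p = 0.81), while no antagonist library reached the lowest sham or EP value. WNT4 fell in EP+TPA against EP (limma adjusted p = 0.0070) and in EP+RU486 against EP (adjusted p = 0.0011). It also fell against sham with TPA (adjusted p = 0.0016) and with RU486 (adjusted p = 0.00029). The TPA call against EP was lost when these 2 groups were fitted alone (adjusted p = 0.13). No fold is given for groups listed mostly or wholly at 0. The drop moved with the luminal mature marker list. Of its 11 genes, 7 fell with TPA and 8 with RU486 against EP. Over all 11874 genes, limma called 380 lower with TPA and 1135 lower with RU486. The part of the marker list in the result was not tested.

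In LP, WNT4 read 4.99, 5.42, 3.16 and 6.99 in sham, 21.7, 2.33, 21.4 and 25.8 in EP, 1.13, 1.66, 1.20 and 1.3 in EP+TPA, and 3.07, 1.26, 1.32 and 1.26 in EP+RU486. Of the 4 EP mice, 3 lay above every other LP library and mouse 311 lay below every sham mouse. The EP minus sham difference was 1.29 on the log2 scale (SE 0.50) and was not called (limma adjusted p = 0.060). With values as deposited it was 1.56 and was called (adjusted p = 0.025). Without mouse 311 it was 2.00 (adjusted p = 4.65e-06), and 6 of the 9 genes tested were then called against 36.3% of all genes. WNT4 fell by 2.66 (SE 0.50, adjusted p = 0.0019) with TPA and by 2.47 (SE 0.50, adjusted p = 0.0029) with RU486 against EP, although mouse 311 lay below the highest EP+RU486 mouse. The order of the group medians was EP, sham, then the antagonist groups, and neither antagonist differed from sham by the test (adjusted p = 0.14 and 0.15) although their values did not overlap sham. The luminal mature list summed to 463 to 789 in sham, 343.5 to 2224 in EP, 248.9 to 280 in EP+TPA and 257 to 416 in EP+RU486, and its part in the LP result was not tested.

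RSPO1, the R-spondin among the 10 genes, was higher in each EP mouse than in any sham mouse in both luminal fractions. In LM it was listed at 0 in all 4 sham libraries, read 98.4, 3.52 and 112 in EP, was listed at 0 in 3 EP+TPA libraries with 103 in mouse 332, and was listed at 0 in all 4 EP+RU486 libraries. It was thus above 0 only in the 3 EP mice and in the EP+TPA mouse whose markers stood apart. RSPO1 passed the filter on low values only through these 4 libraries, so its LM values are given as a description with no test.

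In LP, RSPO1 read 5.08, 6.21, 4.76 and 4.41 in sham, 129, 21.1, 99.6 and 25.1 in EP, 4.11, 7.97, 5.90 and 4.64 in EP+TPA, and 5.95, 4.18, 4.39 and 5.79 in EP+RU486. Every EP mouse was above every mouse of the other groups, whose values overlapped one another. RSPO1 rose by 3.11 on the log2 scale in EP against sham (SE 0.45, limma adjusted p = 0.00013). It fell by 3.01 with TPA (SE 0.45, adjusted p = 0.00034) and by 3.12 with RU486 (SE 0.45, adjusted p = 0.00026) against EP. The 3 calls held without any single mouse. Markers of other cells moved with RSPO1 in LP: the 11 luminal mature markers summed to 1337 to 2224 in 3 EP mice and 343.5 in mouse 311, and the 10 fibroblast markers to 117 to 235 in EP, 31.2 to 166 in sham, 24.2 to 101 in EP+TPA and 21.4 to 56.1 in EP+RU486. Sham mouse 310 had the fibroblast sum of 166 and read 4.76 for RSPO1. The part of these cells in the result was not tested. Between the antagonist groups and sham the differences were 0.10 and -0.01, with 95% intervals of -0.86 to 1.05 for TPA and -0.97 to 0.94 for RU486.

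WNT4, RSPO1 and AXIN2 had their highest LP values in EP mice, and the 250 bases upstream of their RefSeq starts are shown for that reason (GRCm38.p6, plus strand). Capitals mark the only match among these to AGAACA, the half-site bound by progesterone and glucocorticoid receptors.
WNT4, chr4:137277385-137277634: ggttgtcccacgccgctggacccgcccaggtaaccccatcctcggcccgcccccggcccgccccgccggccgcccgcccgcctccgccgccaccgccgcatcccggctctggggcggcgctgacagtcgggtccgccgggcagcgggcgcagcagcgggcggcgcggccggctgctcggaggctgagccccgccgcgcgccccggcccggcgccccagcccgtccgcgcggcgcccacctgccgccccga
RSPO1, chr4:124986180-124986429: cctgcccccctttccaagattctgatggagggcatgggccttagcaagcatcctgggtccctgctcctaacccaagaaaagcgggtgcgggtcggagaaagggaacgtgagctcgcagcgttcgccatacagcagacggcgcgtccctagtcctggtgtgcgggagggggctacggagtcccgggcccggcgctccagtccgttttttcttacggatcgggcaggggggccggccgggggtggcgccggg
AXIN2, chr11:108920099-108920348: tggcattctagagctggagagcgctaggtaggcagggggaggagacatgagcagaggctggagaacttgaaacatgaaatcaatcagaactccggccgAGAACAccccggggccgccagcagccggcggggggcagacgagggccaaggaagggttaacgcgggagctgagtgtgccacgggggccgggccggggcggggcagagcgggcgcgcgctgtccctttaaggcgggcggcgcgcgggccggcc

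These windows are rich in CpG dinucleotides: over 300 bases, from 250 before to 50 after the start, WNT4 has 51, AXIN2 31 and RSPO1 29, against a median of 7 over 32851 promoters. The table had promoters for 7 of the 10 genes, 3 of them for WNT5B. On either strand, AGAACA was found in AXIN2, 152 bases before the start, and in a WNT5B promoter, against 19.0% of all promoters. The TCF/LEF motif CTTTGAT was found in a WNT5B promoter, 71 bases before the start, against 3.73% of all, and the palindromic estrogen response element with any 3 spacer bases in none of the 7 genes, against 0.0700% of all. The motifs do not overlap one another. A match describes letters and not binding.

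WNT7B, a ligand of luminal cells, fell with EP in both luminal fractions. In LM it read 31.4, 40.2, 32.4 and 28.0 in sham, 3.29, 10.7 and 1.28 in EP, 7.31, 6.56, 1.91 and 10.8 in EP+TPA, and 6.06, 5.86, 5.96 and 8.22 in EP+RU486. All 11 hormone-treated mice were below all 4 sham mice. The log2 difference from sham was -2.80 for EP (SE 0.48, limma adjusted p = 0.0016), -2.31 for EP+TPA (SE 0.44, adjusted p = 0.0027) and -2.17 for EP+RU486 (SE 0.44, adjusted p = 0.0032). The antagonist groups did not differ from EP by the test (adjusted p = 0.58 and 0.38).

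In LP, WNT7B read 28.4, 16.3, 15.3 and 19.2 in sham, 5.15, 5.03, 8.31 and 3.68 in EP, 7.29, 15.7, 7.16 and 9.81 in EP+TPA, and 11.7, 10.04, 14.4 and 10.3 in EP+RU486. EP lay below sham without overlap, and EP+RU486 lay between them without overlapping either. WNT7B fell by 1.68 with EP (SE 0.25, limma adjusted p = 0.00014) and was 0.98 higher in EP+RU486 than in EP (SE 0.25, adjusted p = 0.011). The EP+TPA minus EP difference was 0.73 (SE 0.25, adjusted p = 0.052). EP+TPA was 0.95 below sham (SE 0.25, adjusted p = 0.037), a call that 6 of 8 single-mouse omissions ended, with adjusted p up to 0.12.

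WNT5B, usually placed in the beta-catenin independent branch, moved the other way from WNT4 between EP and the antagonists. In LP it read 172, 122, 136 and 95.2 in sham, 54.4, 98.7, 56.8 and 27.3 in EP, 136, 138, 135 and 164 in EP+TPA, and 122, 124, 116 and 143 in EP+RU486. EP overlapped sham only through mouse 311 and lay below both antagonist groups. WNT5B fell by 1.24 with EP (SE 0.27, limma adjusted p = 0.0027), rose by 1.39 with TPA against EP (SE 0.27, adjusted p = 0.0023) and rose by 1.21 with RU486 (SE 0.27, adjusted p = 0.0053). Beside it, the 10 luminal progenitor markers in LP summed to 6203 to 11110 in sham and 447 to 2908 in EP. They summed to 5936 to 7465 in EP+TPA and 5402 to 6691 in EP+RU486. Of the 10, 8 were lower in EP than in sham, where limma called 1838 of all 11402 genes lower. The part of these markers in the WNT5B result, and in the LP falls of WNT7B and LGR5 with EP, was not tested.

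In LM, WNT5B read 58.2, 133, 23.0 and 12.3 in sham, 44.0, 2.56 and 22.2 in EP, 142, 139, 55.6 and 195 in EP+TPA, and 148, 147, 119 and 165 in EP+RU486. Both antagonist groups lay above EP, and sham spread across the range of the others. The rise with RU486 against EP was 3.22 (SE 0.85, limma adjusted p = 0.022), and the TPA difference of 2.98 (SE 0.85) was not called (adjusted p = 0.065). Without mouse 332 the TPA difference was 3.35 and was called (SE 0.89, adjusted p = 0.021). The RU486 call was lost without mouse 311 or mouse 333, with adjusted p up to 0.077. Against EP, 6 of 10 luminal progenitor markers rose with RU486 and 3 with TPA. Over all 11874 genes, limma called 988 higher with RU486 and 157 higher with TPA. The part of the markers was not tested here either.

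WNT5A, a noncanonical ligand known to restrain duct growth, read 13.1, 7.11, 16.0 and 14.8 in LM sham, 3.32, 18.6 and 1.95 in EP, 2.88, 3.48, 1.06 and 1.72 in EP+TPA, and 5.12, 4.39, 4.56 and 3.70 in EP+RU486. The antagonist groups lay below sham without overlap, and EP had its high value in mouse 311. WNT5A fell by 2.07 in EP+TPA against sham (SE 0.46, limma adjusted p = 0.0072). The difference was -1.07 for EP (adjusted p = 0.14) and -1.29 for EP+RU486 (adjusted p = 0.058). Without mice 311 and 332 all 3 differences from sham were called, at -1.89, -1.87 and -1.29. In LP, WNT5A ran from 1.71 to 10.8 with overlap between all groups and no call, although the EP minus sham difference without mouse 311 was 0.96 (adjusted p = 0.049).

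LGR5, the receptor that marks stem cells in several epithelia, was low and fell with EP. In LP it read 4.45, 1.59, 2.17 and 2.22 in sham, 0.397, 0.436, 0.254 and 0.254 in EP, 0.887, 0.285, 0.364 and 0.736 in EP+TPA, and 1.56, 1.67, 0.896 and 0.879 in EP+RU486. EP and EP+TPA lay wholly below sham. No EP or EP+TPA library reached the filter's value of 1, and LGR5 passed the filter only with its sham libraries counted. Its LP tests are therefore to be read as description. With no filter on low values, the EP minus sham difference had a limma adjusted p of 0.00031, in a fit that called 21.6% of all genes. LGR5 fell by 1.38 with EP (SE 0.20, limma adjusted p = 0.00013) and by 1.16 in EP+TPA against sham (SE 0.20, adjusted p = 0.0030). It was 0.74 higher with RU486 than with EP (SE 0.20, adjusted p = 0.017), which 2 of 8 single-mouse omissions ended (adjusted p up to 0.059), and 0.22 higher with TPA (SE 0.20, adjusted p = 0.52).

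In LM, LGR5 read 1.91, 9.80, 4.10 and 2.41 in sham, 0.222, 0.432 and 0.150 in EP, 0.987, 1.32, 0.196 and 1.94 in EP+TPA, and 1.63, 1.06, 1.63 and 0.875 in EP+RU486. EP was below every sham mouse. LGR5 fell by 1.94 with EP (SE 0.37, limma adjusted p = 0.0032), by 1.27 in EP+TPA against sham (SE 0.35, adjusted p = 0.022) and by 1.09 in EP+RU486 against sham (SE 0.35, adjusted p = 0.036). The EP call held without any single mouse, the RU486 call was lost in 6 of 8 omissions (adjusted p up to 0.088), and the TPA call was lost without mouse 310 or 332 (adjusted p up to 0.056).

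LGR6, a close relative of LGR5, was higher with the antagonists than with EP in LP. There it read 18.9, 23.6, 18.4 and 14.9 in sham, 17.5, 22.2, 11.7 and 2.50 in EP, 34.3, 42.7, 34.6 and 18.7 in EP+TPA, and 27.4, 43.8, 35.9 and 24.8 in EP+RU486. Only EP+RU486 was clear of EP, and the EP value of mouse 327 was the lowest in the fraction. LGR6 rose by 1.46 with TPA (SE 0.45, limma adjusted p = 0.034) and by 1.5 with RU486 (SE 0.45, adjusted p = 0.027) against EP. These calls ended in 4 and 3 of 8 single-mouse omissions, with adjusted p up to 0.091 and 0.076. In LM, LGR6 read 6.34, 26.9, 2.48 and 0 in sham, 13.2, 0 and 15.2 in EP, 23.9, 27.3, 14.4 and 24.9 in EP+TPA, and 56.9, 49.9, 35.1 and 30.6 in EP+RU486. The RU486 mice were above all other LM mice, and the difference from sham was 3.05 (SE 0.97, adjusted p = 0.041), lost in 7 of 8 omissions (adjusted p up to 0.11).

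LGR4, the broadly expressed receptor of the trio, was not called between any treatments. It ran from 0 to 5.78 in LM and from 1.25 to 4.54 in LP, with overlap between sham and EP in both. In LP the EP minus sham difference was 0.004 with a 95% interval of -0.45 to 0.46, and each antagonist minus EP difference was near 0.52 (limma adjusted p = 0.11 for TPA and 0.094 for RU486).

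AXIN2, the canonical feedback target, stayed low but was highest in EP. In LP it read 0.0792, 0.0643, 0.0469 and 0.0639 in sham, 0.924, 0.709, 1.27 and 0.311 in EP, 0.192, 0.0530, 0.128 and 0.0556 in EP+TPA, and 0.0942, 0.0569, 0.0860 and 0.0815 in EP+RU486. Every EP mouse was above every other LP mouse, mouse 311 included. AXIN2 was under the filter in LM and LP and so had no test in the main comparisons; the other 9 genes were tested. With no filter on low values, it rose by 0.73 with EP in LP (SE 0.11, limma adjusted p = 0.00048) and differed from EP by -0.68 with TPA (adjusted p = 0.0016) and by -0.71 with RU486 (adjusted p = 0.0011). In those fits 21.6%, 12.3% and 14.6% of all genes were called. In LM it was at most 0.0176 in sham and 0.0571 in EP+RU486, read 0.910, 0.232 and 1.18 in EP, and was at most 0.0578 in EP+TPA apart from 1.49 in mouse 332. The EP minus sham difference in LM, again without the filter, was 0.78 (adjusted p = 0.069), in a fit that called 12.7% of all genes.

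PROCR, the protein C receptor, is also made by endothelial cells. In LM it read 61.8, 65.1, 72.1 and 64.3 in sham, 49.3, 66.6 and 49.3 in EP, 156, 132, 45.5 and 119 in EP+TPA, and 123, 93.7, 152 and 107 in EP+RU486. All antagonist-treated mice but 332 were above every sham and EP mouse. PROCR rose by 1.09 with RU486 against EP (SE 0.31, limma adjusted p = 0.027), which 4 of 7 omissions ended (adjusted p up to 0.086), and the TPA difference of 0.91 was not called (adjusted p = 0.11). The 10 endothelial markers summed to 207 to 303 in sham, 182 to 248 in EP, 297 to 500 in EP+RU486 and 164 to 582 in EP+TPA, the lowest being mouse 332. PECAM1, an endothelial adhesion protein, read 77.7 to 166 in the other 7 antagonist-treated mice and 32.4 in mouse 332. By limma 0 of the 10 were called in any LM treatment comparison, although 9 had an unadjusted p under 0.05 between EP+RU486 and EP and 5 between EP+TPA and EP. Their part in the PROCR difference was not tested. In LP, PROCR ran from 24.7 to 307 with single high mice in sham (188, mouse 305) and EP+TPA (307, mouse 336), and was not called. The endothelial sums of those mice were 217 and 212, in a fraction that ran from 92.3 to 355.

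**Figure D1:**
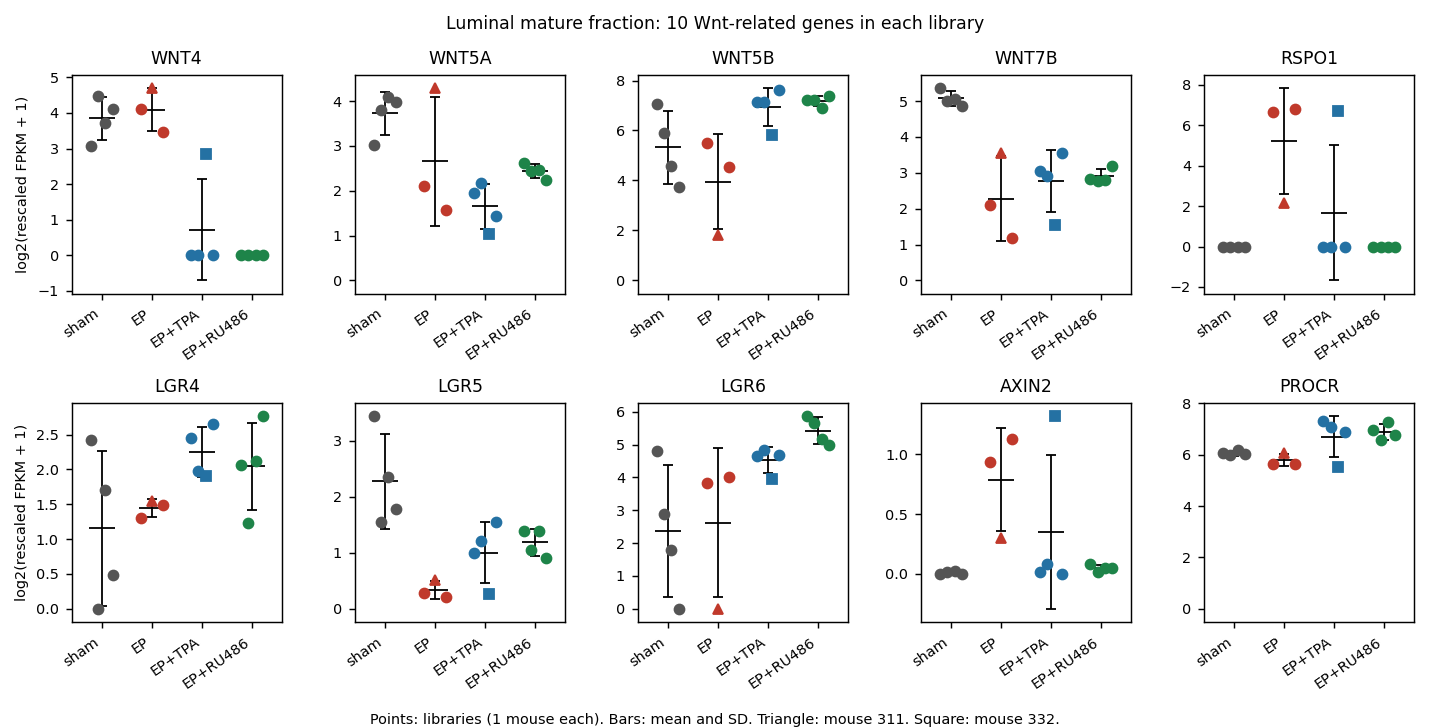
Each point is an LM library on a log2(rescaled FPKM-scale value + 1) axis, grouped by treatment, with bars for the mean and SD on that scale; the triangle is mouse 311 and the square mouse 332. In the WNT4 and RSPO1 panels the EP+RU486 points lie at 0, and in the RSPO1 and AXIN2 panels the square lies with the EP points rather than with the other EP+TPA points.

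**Figure D2:**
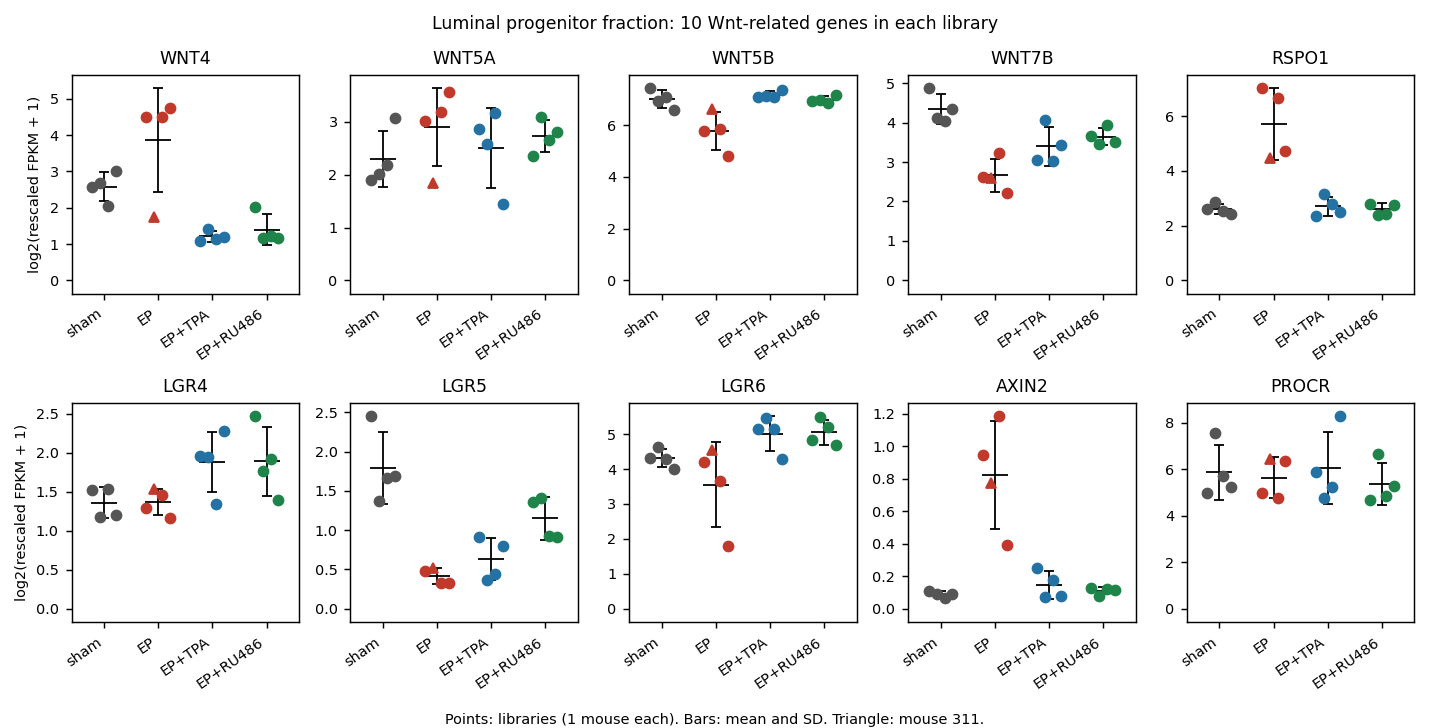
Each point is an LP library on the same log2 scale, with bars for the mean and SD and a triangle for mouse 311. RSPO1 and AXIN2 are highest in the 4 EP mice, WNT4 is high in 3 of them, and WNT7B and LGR5 are lower in EP than in sham.

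Counts over the 9 tested genes were read against all genes tested. In LP their median log2 difference between EP and sham was -0.23, where that of all genes was 0.005. In LM, 3 were called between EP and sham, with 19.5% of all genes called. Between EP+TPA and EP 1 was called (4.52% of all genes), and between EP+RU486 and EP 4 (17.9%). Against sham, 4 were called with TPA (16.1%) and 4 with RU486 (21.7%). RSPO1, which passed the filter only through its high libraries, is among those called in EP against sham and EP+RU486 against EP. Leaving out single mice moved the count for EP+TPA against EP to between 1 and 4 (4 without mouse 332, 2 without mouse 306), for EP+RU486 against EP to 2 or 3 and for EP+RU486 against sham to between 2 and 6. The share of all genes called in those fits is not given, so these counts cannot be set beside the shares above. Without mice 311 and 332 together it was 19.8% for EP+TPA against EP. In LP, 4 were called between EP and sham (32.4% of all genes), 4 between EP+TPA and EP (18.4%) and 6 between EP+RU486 and EP (20.9%). In LP, 2 were called against sham with TPA (5.1%) and 0 with RU486 (10.6%). In the last comparison limma gave an unadjusted p under 0.05 for 4 of the genes, and for 2919 of all 11402 genes. LGR5, which passed the LP filter only with its sham libraries counted, is among those called in EP against sham, EP+RU486 against EP and EP+TPA against sham.

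Without LM mice 311 and 332, a choice made after seeing the data, WNT4 kept its 4 calls and the calls for WNT7B and LGR5 between EP and sham held. The share of all genes called rose to 30.4% for EP against sham, 19.8% for EP+TPA against EP and 21.8% for EP+RU486 against EP. Against sham it was 20.5% with TPA and 30.4% with RU486. WNT7B was then higher than in EP with TPA (1.53, SE 0.28, limma adjusted p = 0.0013) and with RU486 (1.25, SE 0.26, adjusted p = 0.0033). PROCR was 1.44 higher with TPA than with EP (SE 0.20, adjusted p = 0.00014), and the WNT5B difference between EP+RU486 and EP was no longer called (2.16, SE 0.71, adjusted p = 0.0504).

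**Figure D3:**
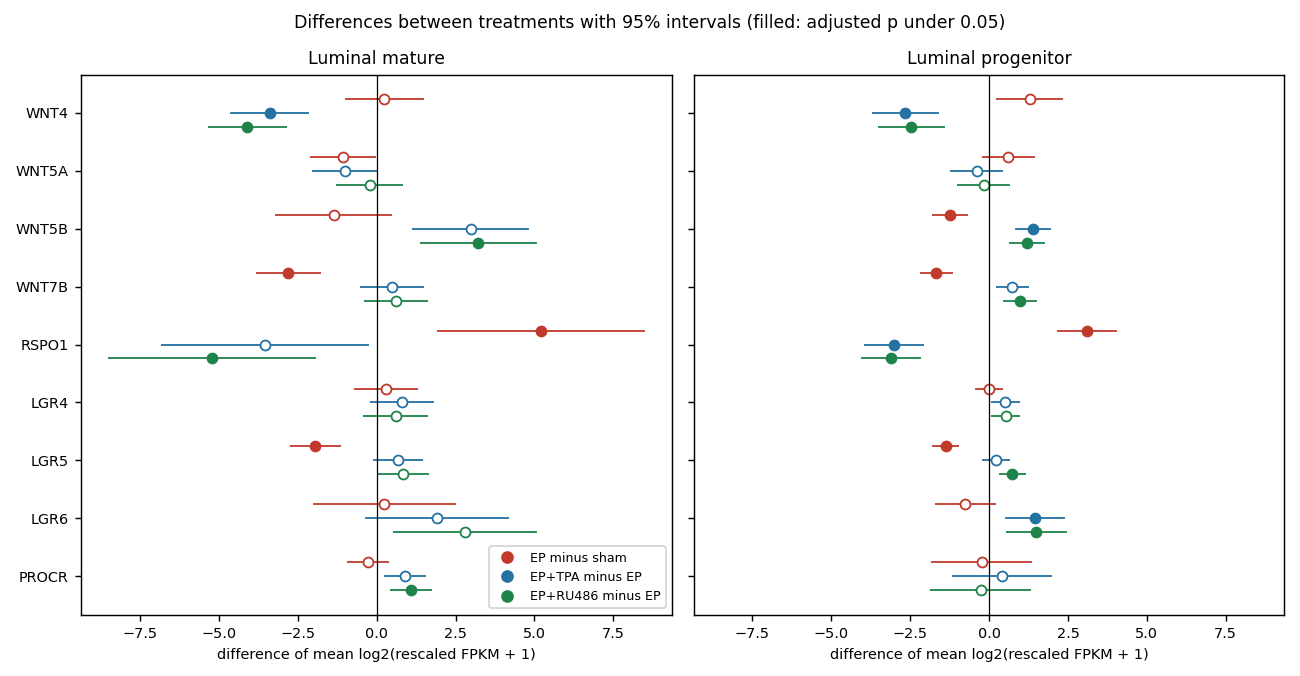
Differences of mean log2(rescaled FPKM-scale value + 1) with 95% intervals for the 9 tested genes in LM and LP; a filled point has a limma adjusted p under 0.05. WNT4 and RSPO1 lie left of 0 with either antagonist in both fractions, and their LM values depend on the added 1 because whole groups were listed at 0. The LM RSPO1 points are drawn as a description only, since the gene passed the filter through its high libraries. In LP, LGR5 passed the filter only with its sham libraries counted.

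The antagonists were compared with each other at their single, unstated doses. Both are steroids that carry a dimethylaminophenyl group, and mifepristone also binds the glucocorticoid receptor. Over the pair's 3 fractions, limma called 0 of the tested genes between EP+TPA and EP+RU486, with 0% of all genes called in LM, LP and MSC. Over all genes, limma gave an unadjusted p under 0.05 for 1587 of 11874 in LM, 199 of 11402 in LP and 196 of 12193 in MSC. Among the tested members it did so for 0 in LM, 1 in LP and 0 in MSC. That gene was LGR5 in LP, with a TPA minus RU486 difference of -0.52 (95% interval -0.95 to -0.09, unadjusted p = 0.021, adjusted p = 1). It passed the LP filter only with its sham libraries counted, so this difference is to be read as description. In LP the intervals for TPA minus RU486 were -1.25 to 0.87 for WNT4, -0.84 to 1.06 for RSPO1, -0.40 to 0.76 for WNT5B and -0.78 to 0.28 for WNT7B. For LGR6 the interval was -0.99 to 0.91 in LP and -3.00 to 1.21 in LM, and for PROCR -0.92 to 2.27 in LP and -0.80 to 0.44 in LM. In LM it was -1.96 to 1.46 for WNT5B and -1.07 to 0.81 for WNT7B. The 2 groups overlapped for every tested gene in LP, while in LM WNT5A and LGR6 were lower in all 4 EP+TPA mice than in any EP+RU486 mouse, without a call (adjusted p = 0.45 and 0.69). The share of all genes whose values lie apart in this way is not given. The separation of these 2 genes is therefore a description and does not set them apart from other genes.

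In the MSC fraction limma called 0 of the 10 genes between treatments. In each of the 6 comparisons 0% of all genes was called, while limma gave an unadjusted p under 0.05 for 1 of the 10 in EP against sham, 2 in EP+TPA against EP, 0 in EP+RU486 against EP and 1 in each antagonist group against sham. Over all genes the count at an unadjusted p under 0.05 ran from 196 to 854. The pair in EP+TPA against EP were WNT7B (1.01, unadjusted p = 0.021, adjusted p = 0.62) and AXIN2 (-0.76, unadjusted p = 0.028, adjusted p = 0.65). AXIN2 reached the filter's value of 1 only in EP mice 322 and 327 and sham mouse 326. Its MSC difference is therefore to be read as description. LGR5 accounted for the sham comparisons. LGR5 read 9.84, 2.98, 3.73 and 4.01 in sham, 1.06, 1.45, 3.26 and 1.95 in EP, 0, 4.34, 0.043 and 2.73 in EP+TPA, and 3.74, 0, 4.55 and 1.42 in EP+RU486. The 3 lowest values, in mice 312, 313 and 328, came from the libraries with the 3 lowest basal marker sums of their set, from 7.96 up, against 498 to 4450 in the other 7. KRT14 read 2.59 in mouse 312 and was listed at 0 in the other two; the basal part in the LGR5 differences was not tested. The difference from sham with the set as a term was -1.30 for EP (95% interval -2.30 to -0.29, adjusted p = 0.86), -1.41 for EP+TPA (-2.40 to -0.42, adjusted p = 0.999) and -1.30 for EP+RU486 (-2.30 to -0.29, adjusted p = 0.9999).

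Other MSC values differed most between sets or in a few libraries. WNT4 ran from 1.73 to 4.07 in the 6 libraries adjusted with LP and from 4.36 to 7.68 in the other 10, and WNT5B from 16.1 to 35.8 and from 67.2 to 107. WNT5A ran from 0.884 to 8.11 and LGR4 from 1.11 to 8.60, with overlap between all treatments. RSPO1 ran from 5.06 to 11.3 in the 6 libraries adjusted with LP and from 17.9 to 22.6 in the other 10, and no treatment difference was larger than 0.27 on the log2 scale. LGR6 read 46.4 in mouse 326, 48.1 in mouse 327 and 34.4 in mouse 322, and at most 15.4 elsewhere. AXIN2 read 1.39, 1.29 and 2.33 in those mice and at most 0.572 elsewhere. PROCR was listed at 0 in mice 326 and 327 and ran from 53.4 to 318 in the others. Mice 326 and 327 had the endothelial sums of 25.4 and 0 and the highest sums of the 12 basal markers in their set, 4450 and 3545, where the other 8 libraries ran from 7.96 to 2100. Mouse 322, of the other set, had a basal sum of 7047 in a range of 898.5 to 11330. The part of either cell type was not tested. Without them 0 of the 10 genes were called by limma.

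**Figure D4:**
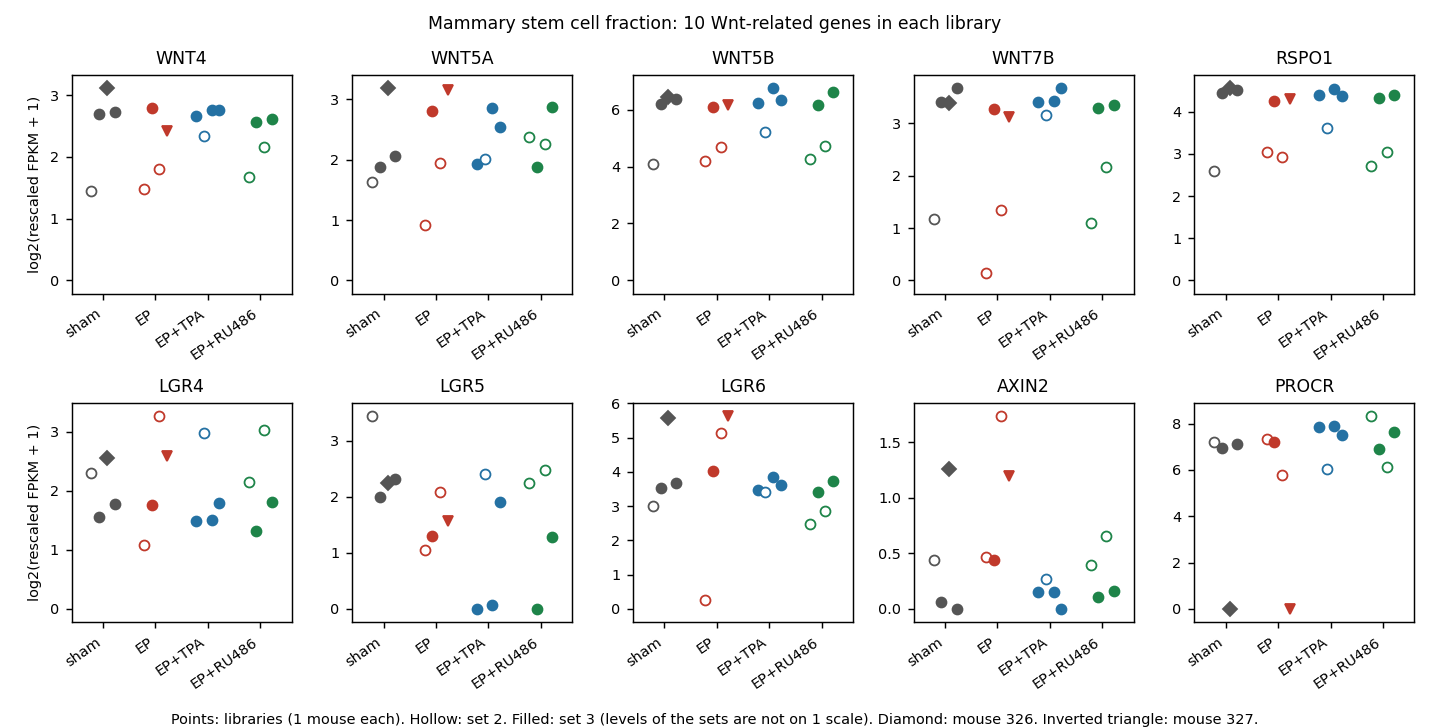
Each point is an MSC library on the log2 scale, hollow for the 6 libraries adjusted with LP and filled for the other 10; the diamond is mouse 326 and the inverted triangle mouse 327. In WNT4, WNT5B and RSPO1 every hollow point lies below every filled point, and the 2 marked mice lie at 0 for PROCR and at the top for LGR6.

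LP and MSC libraries of 6 mice were adjusted together and could be compared within a mouse (1 sham, 2 EP, 1 EP+TPA and 2 EP+RU486). The receptors LGR4 and LGR5 and PROCR were higher in MSC, and the ligands WNT5A, WNT5B and WNT7B and the receptor LGR6 were lower. In this paired fit 7 of 9 tested genes were called, against 38.8% of all genes. LGR5, which passed the filter only with its MSC libraries counted, is among the 7. WNT5B read 16.1, 17.4, 18.4, 24.8, 35.8 and 25.5 in MSC and 122, 54.4, 124, 56.8, 138 and 116 in LP of mice 305, 306, 308, 322, 323 and 324. It was lower in MSC in 6 of 6 mice, by 2.06 (SE 0.23, limma adjusted p = 0.00051). WNT7B was also lower in 6 of 6 mice, with a median of 1.39 in MSC and 12.2 in LP (difference -2.06, SE 0.25, adjusted p = 0.00075). WNT5A was lower in 6 of 6 mice, with medians of 2.93 and 6.17 (difference -0.90, SE 0.24, adjusted p = 0.019).

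LGR5 was higher in MSC in 6 of 6 mice, reading 9.84, 1.06, 3.74, 3.26, 4.34 and 4.55 against 1.59, 0.397, 1.67, 0.254, 0.285 and 0.896 in LP, a difference of 1.47 (SE 0.23, limma adjusted p = 0.0021). It passed the filter of the paired fit only with its MSC libraries counted, so this test is to be read as description. LGR4 was higher in 5 of 6 mice (0.87, SE 0.25, adjusted p = 0.025), and PROCR in 5 of 6 (1.22, SE 0.31, adjusted p = 0.016). LGR6 was lower in 5 of 6 mice (-1.92, SE 0.60, adjusted p = 0.036), mouse 322 being the exception. With values as deposited, which moved the median of all genes by -0.51, LGR4 (0.40) and PROCR (0.61) were not called (adjusted p = 0.17 and 0.072). The LGR4 and LGR6 calls ended in 4 and 5 of 6 single-mouse omissions, with adjusted p up to 0.071 and 0.10. RSPO1 and WNT4 were not called (adjusted p = 0.25 and 0.33): in the 2 EP mice RSPO1 read 129 and 99.6 in LP and 7.21 and 6.59 in MSC, while in each antagonist-treated mouse both genes were higher in MSC. AXIN2 was higher in MSC in 5 of 6 mice and was not tested. All 10 endothelial markers and 11 of 12 basal markers were higher in MSC, and the endothelial part in PROCR was not tested.

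**Figure D5:**
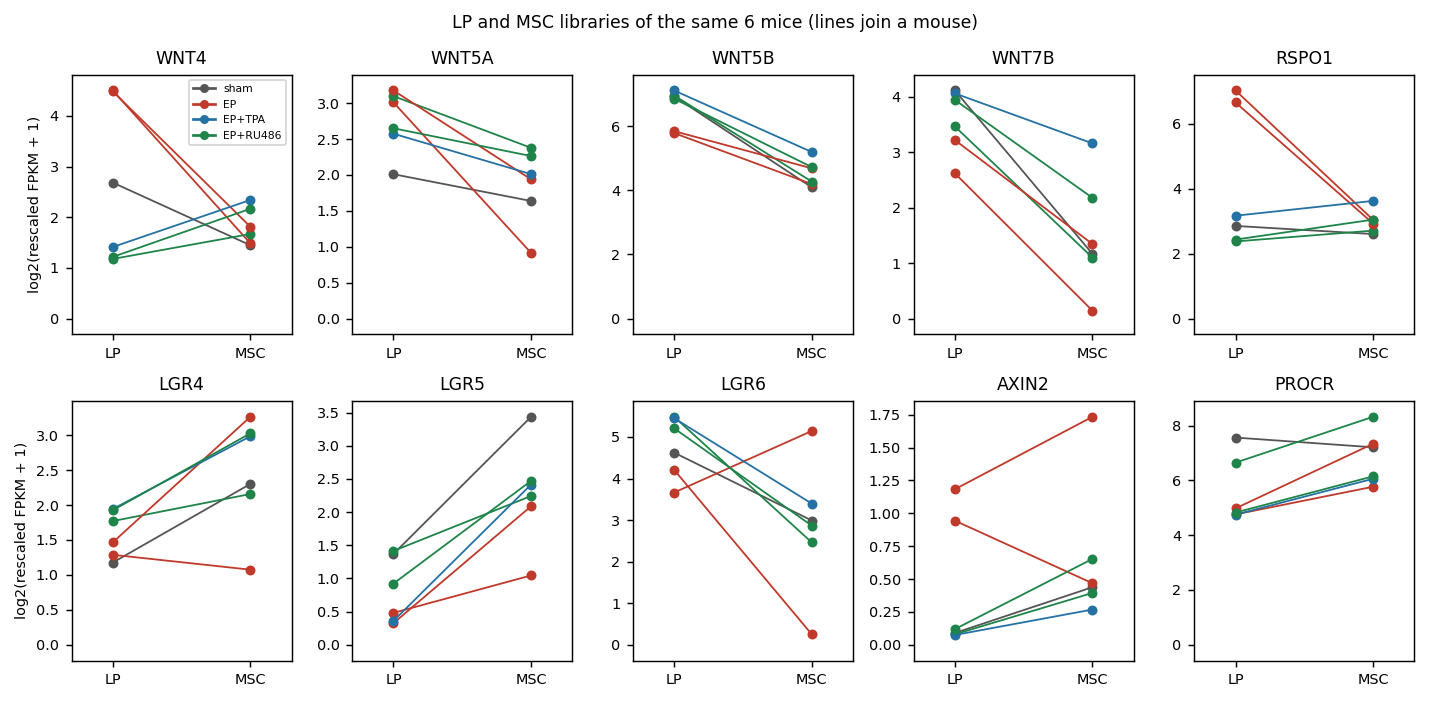
Lines join the LP and MSC libraries of the same mouse on the log2(rescaled FPKM-scale value + 1) axis, coloured by treatment, for the 6 mice adjusted together. All 6 lines fall from LP to MSC for WNT5A, WNT5B and WNT7B and all 6 rise for LGR5, while for RSPO1 the 2 EP lines fall steeply.

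The pathway around these genes was described from lists with 87 further Wnt genes. In LM, 15 of 56 tested were called between EP and sham, 8 higher and 7 lower, where 19.5% of all genes were called. With TPA against EP 2 were called, both lower (4.52% of all genes), and with RU486 10, 6 higher and 4 lower (17.9%). In LP, 21 of 50 were called between EP and sham, 11 higher and 10 lower (32.4% of all genes). Against EP, 12 were called with TPA, 4 higher and 8 lower (18.4%), and 17 with RU486, 8 higher and 9 lower (20.9%). The median log2 difference of the further genes stayed between -0.11 and -0.04 in these comparisons, and that of all genes between -0.02 and 0.005. In MSC 0 of 61 were called by limma in any treatment comparison, and at most 3 had an unadjusted p under 0.05.

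PORCN, the acyltransferase that lipid-modifies Wnt ligands, rose with EP and fell with either antagonist in both luminal fractions. In LP it averaged 5.0 ± 0.42 in sham, 12.5 ± 7.65 in EP, 4.32 ± 0.27 in EP+TPA and 4.42 ± 0.55 in EP+RU486 (SD, n = 4 each). The log2 difference was 0.98 for EP against sham (limma adjusted p = 0.015), -1.16 for TPA against EP (adjusted p = 0.010) and -1.13 for RU486 against EP (adjusted p = 0.011). In LM the corresponding differences were 1.63 (adjusted p = 0.0026), -1.29 (adjusted p = 0.028) and -1.53 (adjusted p = 0.0045). WLS, the carrier of Wnt ligands to the surface, fell in LM in EP (-0.87, adjusted p = 0.0027) and in EP+TPA (-1.06, adjusted p = 0.00027) and EP+RU486 (-1.03, adjusted p = 0.00029) against sham. ZNRF3, the ligase that R-spondins remove, rose with EP in LM (0.91, adjusted p = 0.0046) and LP (0.67, adjusted p = 0.0038). It fell against EP with RU486 in LM (-0.93, adjusted p = 0.0053) and with TPA and RU486 in LP (-0.48 and -0.51, adjusted p = 0.042 and 0.027). Luminal mature and luminal progenitor marker sums, given above, also differed between treatment groups in both fractions. Their part in the PORCN, WLS and ZNRF3 differences was not tested.

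Receptors and inhibitors split in direction. FZD6, a Frizzled of the planar polarity branch, rose with EP in LM (0.91, limma adjusted p = 0.040) and LP (0.85, adjusted p = 0.0051) and fell with TPA and RU486 against EP in LM (-1.14 and -1.42) and LP (-0.75 and -0.81), all called. FZD8 rose in LP with TPA (1.08, adjusted p = 0.0017) and RU486 (1.32, adjusted p = 0.00036) against EP. ROR2, a receptor for WNT5A, fell in LM against sham by 1.5 with EP, 1.60 with EP+TPA and 1.54 with EP+RU486, with adjusted p of at most 0.00038. Among secreted inhibitors, SFRP2 fell in LP from 12.5 ± 2.00 in sham to 2.15 ± 1.81 in EP, and was 2.06 ± 0.44 in EP+TPA and 1.57 ± 0.46 in EP+RU486 (SD, n = 4 each). The 3 LP differences from sham were -2.23, -2.15 and -2.41, with adjusted p of at most 0.00015. DKK3 rose with EP in LP (1.89, adjusted p = 0.0050) and fell with TPA (-1.75, adjusted p = 0.014) and RU486 (-1.50, adjusted p = 0.028), whereas in LM it was above sham in all 3 hormone-treated groups (2.10, 1.54 and 1.51). Whether the luminal or fibroblast markers had a part in these receptor and inhibitor differences was not tested.

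Genes listed as Wnt targets did not move in a single direction. In LP, 8 of 10 tested passed the test between EP and sham, 4 higher and 4 lower, with LGR5 among them, where 32.4% of all genes were called. LGR5 passed the LP filter only with its sham libraries counted. TCF7, a TCF/LEF factor, rose with EP (1.37, limma adjusted p = 0.00019) and fell with TPA (-0.91, adjusted p = 0.0068) and RU486 (-0.99, adjusted p = 0.0038) against EP. CD44, an adhesion receptor, fell with EP (-2.52, adjusted p = 4.51e-06), and MYC, a growth regulator, fell with EP (-1.29, adjusted p = 0.0015). Against EP, CD44 rose with TPA (1.01, adjusted p = 0.012) and RU486 (0.84, adjusted p = 0.031). MYC also rose with TPA (1.02, adjusted p = 0.012) and RU486 (0.92, adjusted p = 0.020). Any part of the luminal mature, luminal progenitor or fibroblast markers in these LP differences was not tested.

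Between MSC and LP of the same mice, 26 of 58 further Wnt genes were called, 20 higher and 6 lower in MSC, where 38.8% of all genes were called, and their median difference was 0.32 against 0.04 over all genes. All 6 secreted or surface inhibitors called, of 9 tested, were higher in MSC, led by WIF1 (3.86, SE 0.36, limma adjusted p = 0.00029), SOSTDC1 (2.68, SE 0.28, adjusted p = 0.00043) and DKK3 (2.09, SE 0.72, adjusted p = 0.0495). Among the ligands, 3 were higher, WNT10A (3.18, SE 0.43, adjusted p = 0.0012), WNT6 (2.35, SE 0.42, adjusted p = 0.0041) and WNT11 (2.22, SE 0.33, adjusted p = 0.0019), beside the 3 lower ligands described above. Of the targets, NKD1, a feedback inhibitor, was 2.47 higher (SE 0.24, adjusted p = 0.00032). Basal and endothelial markers were also higher in MSC, as given above, and their part in these differences was not tested.

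Genes with the pattern most like a member were named for the member with the smallest adjusted p in each fraction. For WNT4 over the 15 LM libraries they were STC2 (Pearson r = 0.996), CDO1 (0.994) and WFDC2 (0.993). For LGR5, which passed the LP filter only with its sham libraries counted, they were RAB14 (0.913), VPS26A (0.902) and CAB39 (0.898) over the 16 LP libraries. For WNT7B over the 16 MSC libraries, centred on the set, they were KRT8 (0.924), CAPSL (0.904) and PLP2 (0.893). These are descriptions across libraries that share treatments, sets and cell mixture.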

How the data were processed

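RNA from sorted mammary cells was made into SMART-Seq v4 and Nextera XT libraries and sequenced as 75-base pairs, per the labels' protocols. STAR, Cufflinks, DESeq2 and the mm9 build are named in the submitters' processing notes, without versions, roles or order. The deposited values are FPKM-scale numbers, not counts, so no count test was run; read depth is unknown. Sets were inferred from identical positive values shared between libraries (1382 to 6488 within a set, 0 between sets); the adjustment is not described in the sources used here. Here values were rescaled within a set by median ratios (factors 0.504 to 1.32) above the tied lowest value, and log2(value + 1) was fitted with limma 3.58.1 in R 4.3.3 over genes reaching 1 in at least 3 libraries. All 4 treatment groups of a fraction entered 1 fit, with the set as a term in MSC. Intervals are 95%. Date-like symbols (27) were left out. The MSC and LP libraries of 6 mice were paired by the mouse number in the labels; LP and MSC deviations of a mouse correlated at -0.01 to 0.35. On simulated data, 79% (LM), 94% (LP) and 90% (MSC) of log2 changes of 2 were recovered between EP and sham, and 19%, 58% and 27% of changes of 1. Recovery at the spread of the measured values was not tested. For EP against sham the SE was 1.72 for PROCR in MSC and 0.85 for WNT5B in LM. The simulated shares are therefore not to be read beside the 0 calls in MSC. Named genes were the 10 members, up to 3 called genes per direction from each list of Wnt genes and comparison, and the 3 genes most correlated with the leading member of each fraction. The members and lists were chosen with earlier results of these data known. Promoter sequences are RefSeq's on GRCm38.p6; no coordinates of the mm9 build were used.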

Additional observations from a re-analysis of the deposited data

Results flagged for a closer look

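Within the LM and LP groups of 4 mice, 8 single values lay far from the other 3 in the same group, out of 67 groups examined. For normal values, chance alone marks about 1 in 20 such groups. These values were not transformed and some are listed at 0, so the count cannot be set against that rate. Mouse 332 of the EP+TPA group accounted for 3 of them in LM: WNT4 at 6.17 with the others listed at 0, RSPO1 at 103.2 with the others listed at 0, and AXIN2 at 1.493 with the others at 0 to 0.0578. The luminal progenitor markers of that library summed to 283 against at least 6767 in the other EP+TPA mice; their part was not tested. WNT7B read 8.217 in LM of EP+RU486 mouse 333 and 5.86 to 6.06 in the others. In LP, WNT4 read 3.069 in EP+RU486 mouse 304 against 1.26 to 1.32, and WNT5B read 164.1 in EP+TPA mouse 336 against 135 to 138. PROCR read 187.7 in LP of sham mouse 305 against 30.0 to 51.0, and 307 in LP of EP+TPA mouse 336 against 25.9 to 58.6.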

How the results depend on the processing

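No called difference of the 10 genes reversed under any alternative. Values as deposited, without the rescaling, moved the median of all genes by 0.16 (LM) and 0.24 (LP) for EP against sham, by up to -0.31 in MSC treatment comparisons and by -0.51 for MSC against LP. Of the 16 LM calls, RSPO1's included, 15 were kept with values as deposited, 14 with a pseudocount of 0.1, 15 with no filter, 14 when only the 2 groups were fitted, 16 with each set's minimum as base and 14 without mice 311 and 332, which added 10. Of the 16 LP calls, LGR5's included, 14, 16, 15, 13 and 16 were kept under the first 5 of these. For EP+TPA against EP in LM, 1 gene was called at first, 0 with only the 2 groups, 4 without mice 311 and 332, and 1 to 4 when single mice were left out. For EP+RU486 against EP in LM the single-mouse range was 2 to 3. For EP+RU486 against sham in LM, 2 were called with a pseudocount of 0.1, 7 without both mice and 2 to 6 without single mice. In LP, EP+TPA against sham gave 1 with values as deposited, 1 with no filter and 1 to 2 without single mice. EP+RU486 against sham gave 1 with values as deposited, 1 with the set minimum, 3 with only the 2 groups and 0 to 1 without single mice. The share of all genes called changes between such fits and is not given beside each count, so the counts describe these genes only. MSC gave 0 throughout, also without the set term, in the larger set alone and without mice 326 and 327. In the paired comparison of MSC with LP, 5 of 7 calls were kept without the replicate block, LGR4 and PROCR being lost. Read depth is unknown, so counting error could not be set beside low values such as AXIN2.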
